A study of Mus musculus with 41 samples.

Results

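H3K36me3, trimethylation of lysine 36 on histone H3, was compared between cultured neurons lacking LSD1n and their WT counterparts. The 4 lists of called H3K36me3 regions were taken by antibody and genotype labels and restricted to chromosomes 1 to 19. They hold 35631 regions, out of 483577 on the same chromosomes in all 27 region lists of the series. The cells were primary cortical neurons of the mouse, kept 10 days in vitro. The groups were LSD1n KO at 0 h and 1 h in 55 mM KCl, and LSD1n WT at the same times. KCl at this concentration depolarizes neurons. Each group has 1 library, and the labels do not give the allele, the litter or the number of animals behind a culture. The labels of the 4 libraries share a title prefix. Chromatin immunoprecipitation with sequencing gives positions here, not levels, so neither the deletion nor the labelled cell type was checked against marker genes.

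H3K36me3 is laid down over the bodies of transcribed genes by the methyltransferase SETD2, which travels with elongating RNA polymerase II, and it increases towards the 3′ end of genes. H4K20me1, monomethylation of lysine 20 on histone H4, is made by KMT5A and is also found over gene bodies. LSD1, encoded by Kdm1a, removes methyl groups from lysine 4 of histone H3. LSD1n is its neuronal splice form, which the title of the series describes as an H4K20 demethylase with a part in transcriptional elongation. No gene annotation of the build of the lists was used, so regions are given by position on mm9 and no gene is named.

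The KO libraries were less deep than the WT ones. They held 13147855 tags at 0 h and 12572399 at 1 h, against 19055899 and 16785574 tags in WT. The authors' caller required 17 tags per 500 bp window in both KO libraries, 5.17 and 5.41 times the number expected by chance placement. In WT it required 20 and 18 tags, 4.20 and 4.29 times the expected number. A window of the same enrichment could therefore pass in WT and not in KO. The part of depth and threshold in the differences below was not tested. With 1 library per group there is no test between groups, and the bracketed 95% intervals cover counting error only.

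Far fewer H3K36me3 regions were called in LSD1n KO neurons than in WT neurons, before and after KCl. At 0 h the KO list held 3612 regions and the WT list 11459, a log2 ratio of -1.67 (-1.72 to -1.61). After 1 h of KCl it held 3152 regions and the WT list 17408, a log2 ratio of -2.47 (-2.52 to -2.41). The covered length was 2.53 Mb in KO against 9.13 Mb in WT at 0 h, and 2.21 Mb in KO against 15.1 Mb in WT at 1 h. Per 1000000 tags the lists held 275 regions in KO and 601 in WT at 0 h, and 251 in KO and 1037 in WT at 1 h. These give smaller log2 ratios of -1.13 and -2.05.

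The shortfall was larger among wide regions. Regions over 2 kb numbered 80 in KO and 567 in WT at 0 h, a KO-to-WT ratio of 0.141 (0.110 to 0.179). With KCl for 1 h the numbers were 71 in KO and 1109 in WT, a ratio of 0.0640 (0.0496 to 0.0814). Among regions of the smallest width the caller reports, about 500 bp, the ratios were 0.365 (0.349 to 0.383) and 0.233 (0.223 to 0.244). Such regions made up 67.9% of the KO list and 58.5% of the WT list at 0 h, and 68.6% of the KO list and 53.3% of the WT list at 1 h. The median width was 501 bp in all 4 lists, so the difference in width lies in the upper tail.

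**Figure D1:**
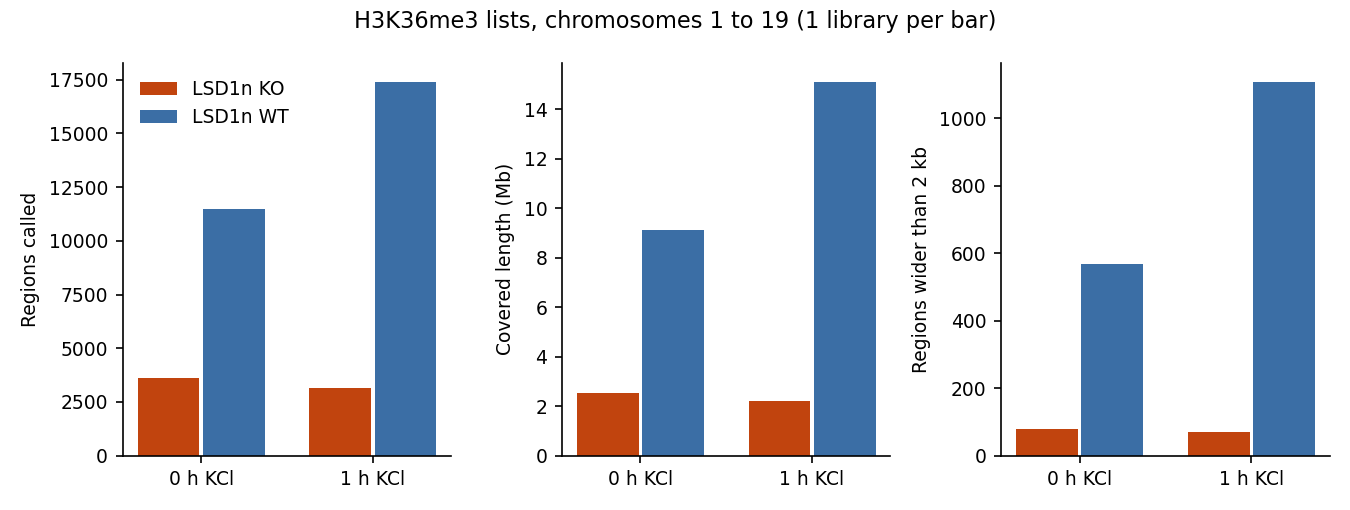
H3K36me3 in LSD1n KO (left bar of each pair) and LSD1n WT (right bar) at 0 h and 1 h of KCl: number of regions, covered length in Mb and number of regions wider than 2 kb on chromosomes 1 to 19, 1 library per bar. KO is lower in all 6 pairs, and the largest gap is that of 71 against 1109 wide regions at 1 h.

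On all 19 chromosomes the KO list was shorter than the WT list, at either time. At 0 h the KO-to-WT ratio was lowest on chromosome 4, with 211 KO and 761 WT regions (0.277), and highest on chromosome 19, with 121 KO and 325 WT regions (0.372). At 1 h it ran from 0.135 on chromosome 16 (71 KO and 525 WT regions) to 0.247 on chromosome 13 (129 KO and 522 WT regions). The median over chromosomes was 0.299 at 0 h and 0.179 at 1 h. The lower number in KO was thus found on each of chromosomes 1 to 19 and did not rest on a few of them.

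Few WT regions had a counterpart in KO. A region counts as kept when it overlaps a region of the other list by at least 1 bp, and as lost when it does not. These words describe the lists, not a measured loss of signal. Of the WT regions 88.4% were lost in KO at 0 h (10134 of 11459) and 91.9% at 1 h (16004 of 17408). Kept regions thus made up 11.6% (10.98 to 12.2) of the WT list of 0 h and 8.07% (7.66 to 8.48) of that of 1 h. In the other direction, 62.1% of KO regions (0 h) and 53.0% (1 h) had no WT region, so 37.9% (36.3 to 39.5) and 47.0% (45.2 to 48.7) were shared. An overlap of 50% of the region lowered the kept share of WT regions to 4.81% and 2.57%.

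KO regions without a WT counterpart nevertheless lay close to WT regions. From these to the nearest WT region the median distance was 3962 bp (0 h) and 2578 bp (1 h). Within 10 kb of a WT region lay 65.7% (63.7 to 67.7) of them at 0 h and 74.7% (72.5 to 76.8) at 1 h. Sequence within 10 kb of a WT region makes up 6.27% and 8.47% of chromosomes 1 to 19. Counting overlaps and neighbours together, 78.7% (0 h) and 86.6% (1 h) of KO regions were within 10 kb of a WT region. Lost WT regions were farther from KO regions, with median distances of 35319 bp at 0 h and 53461 bp at 1 h. Of these, 30.5% (29.6 to 31.4) and 24.2% (23.5 to 24.8) lay within 10 kb of a KO region. The shorter KO list leaves larger gaps, and 2.44% and 2.15% of the chromosomes lie within 10 kb of it.

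The wide WT regions were kept most often. With the WT list of 0 h cut into 5 equal parts by width, 4.14% (3.37 to 5.04) of the narrowest part and 31.2% (29.3 to 33.1) of the widest part overlapped a KO region. After 1 h of KCl these shares were 1.92% (1.49 to 2.44) and 24.0% (22.6 to 25.4). KO regions showed the same gradient, with 26.8% (23.6 to 30.2) of the narrowest and 69.8% (66.3 to 73.1) of the widest part shared at 0 h. At 1 h these were 38.0% (34.2 to 42.0) and 78.6% (75.2 to 81.7). A wide region meets a 1 bp overlap more easily, which adds to this gradient. Since most regions have the same minimum width, their order within the narrower parts follows the order of the deposited list. Of the WT regions over 5 kb, 6 were lost and 30 kept at 0 h, and 22 were lost and 79 kept at 1 h.

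**Figure D2:**
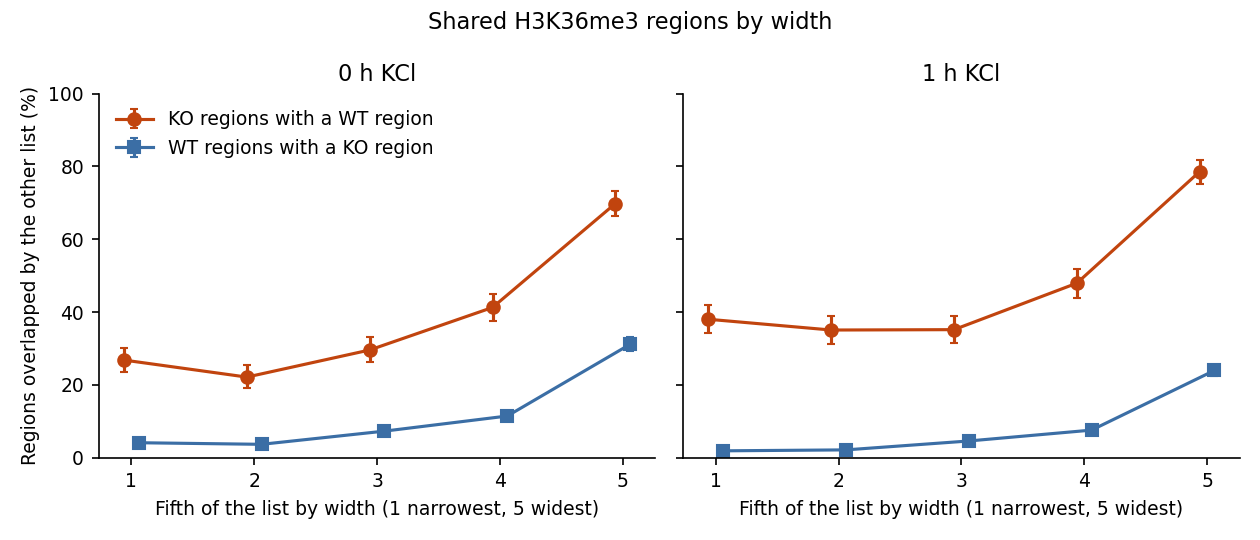
Share of regions overlapped by the list of the other genotype (%, y axis) in 5 equal parts of each list by width (x axis, narrowest to widest), for KO regions (circles) and WT regions (squares) at 0 h (left) and 1 h (right) of KCl; bars are 95% exact binomial intervals. The widest part has the highest share in all 4 curves, at 69.8% and 78.6% for KO regions and 31.2% and 24.0% for WT regions.

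The widest WT region, chr11:3026137-3099441, is a special case. It spans 73.3 kb near the start of chromosome 11, and every one of the 15 histone mark lists of the series covers more than 90% of it. KO regions covered 99.8% of it at 0 h and 97.1% at 1 h. Below it, the region chr1:90155028-90166704 was 88.4% covered in KO at 0 h and 89.4% in KO at 1 h, with 92.7% covered in WT at 1 h. The region chr19:44369223-44380737 was 73.2% and 39.9% covered in KO, and 91.6% in WT at 1 h. The region chr3:88023181-88035355, 12.2 kb in WT, was called as 4 separate regions over 21.8% of its length in KO at 0 h and as 3 over 58.0% in KO at 1 h. The region chr8:113245972-113255934 was 28.5% and 15.3% covered in KO. Kept WT regions therefore ranged from nearly whole to a few fragments.

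Most of the widest lost WT regions had a KO call nearby or at the other time: of the 5 widest at each time, 8 of 10 lay within 10 kb of a KO region of the same time or overlapped one of the other time. Of all lost regions, 30.5% at 0 h and 24.2% at 1 h lay within 10 kb of a KO region of the same time. The share of all lost regions that meet either rule was not computed, and a wide region meets both rules more easily. The 5 widest lost regions of 0 h ran from 5.20 to 6.33 kb. The region chr15:85532212-85537998 lay 939 bp from a KO region of the same time, and KO regions at 1 h covered 26.6% of it. The region chr2:164711059-164716255 was called in neither KO list but lay 3837 bp from a KO region at 0 h. The WT list of 1 h covered 79.0% of it. Those of 1 h ran from 6.09 to 6.82 kb. The widest, chr17:56550431-56557247, lay 2 bp from a KO region of the same time, so it only just missed the overlap rule. It was 31.9% covered in KO at 0 h, as 4 regions, and 59.2% covered in WT at 0 h. The next, chr5:124454451-124460967, was called in neither KO list and lay 10781 bp from the nearest KO region at 1 h, with 49.2% covered in WT at 0 h. The region chr2:27351081-27357569 was lost at 1 h, 40967 bp from the nearest KO region, although KO covered 95.9% of it at 0 h. WT covered 86.8% of it at 0 h. The region chr4:147383994-147390082 was called in neither KO list and lay 26708 bp from the nearest KO region at 1 h. Of its length, 10.9% was covered in WT at 0 h.

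The lists were then thinned to equal numbers, since a region meets a longer list more often by construction. With the WT list reduced to its widest regions to match KO, 25.9% (24.5 to 27.4) of KO regions and 24.5% (23.1 to 25.9) of WT regions overlapped at 0 h. At 1 h these were 28.4% (26.8 to 30.0) of KO and 25.4% (23.9 to 27.0) of WT regions. Thinned WT regions stayed wider. Their median was 1049 bp at 0 h, against 501 bp in KO, and they covered 5.04 Mb, against 2.53 Mb in KO. In the thinned list of 1 h the median was 1718 bp and the covered length 6.70 Mb, against 501 bp and 2.21 Mb in KO.

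The KO lists overlapped each other less than the WT lists did. In the whole lists, 18.1% (16.8 to 19.5) of KO regions at 1 h overlapped KO at 0 h, and 24.1% (23.5 to 24.7) of WT regions at 1 h overlapped WT at 0 h, a list with about 3 times as many regions as that of KO. With all 4 lists cut to the 3152 widest regions, 17.1% (15.8 to 18.5) of KO regions at 1 h overlapped KO at 0 h. Of the WT regions at 1 h, 38.0% (36.3 to 39.8) overlapped WT at 0 h. Regions of KO overlapped WT of the same time at 26.2% (24.6 to 27.7) for 0 h and 28.4% (26.8 to 30.0) for 1 h, which is more than KO overlapped KO. The cut keeps nearly all of each KO list but only the widest WT regions, with medians of 501 bp in both KO lists and 1191 and 1718 bp in WT, and wide regions meet a 1 bp overlap more easily. The part of width in these shares was not tested. The pairs of 1 genotype differ in KCl time, and no pair of H3K36me3 lists repeats a group, so the agreement of replicate lists is unknown. Every region called lost or kept rests on 1 list of each genotype.

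**Figure D3:**
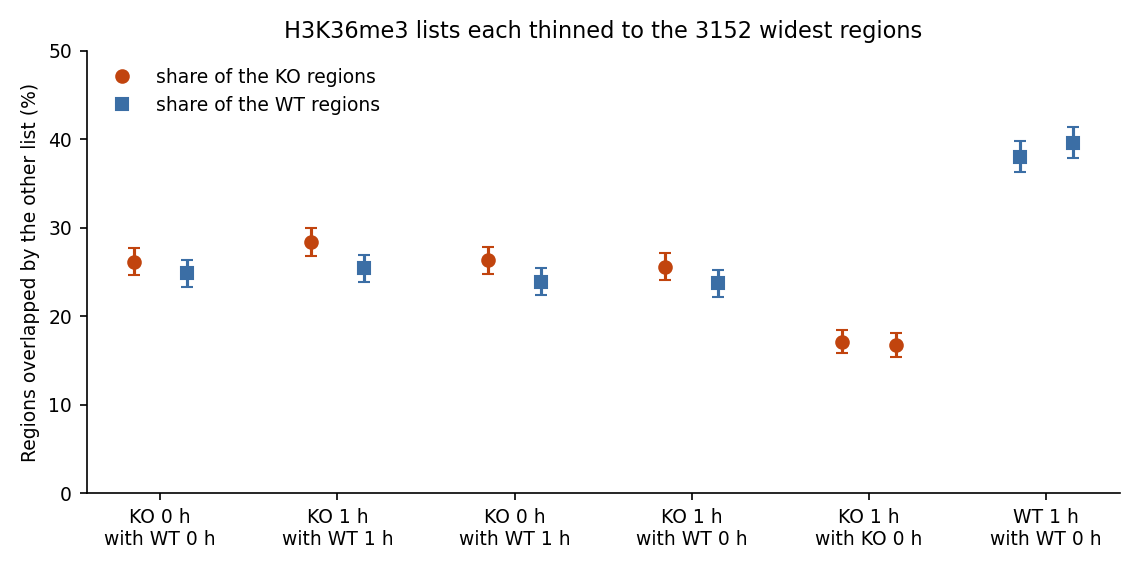
Share of regions overlapped by the other list (%, y axis) for the 6 pairs of H3K36me3 lists (x axis), each list thinned to its 3152 widest regions, which are wider in WT; circles are shares of KO regions, squares shares of WT regions, bars 95% exact binomial intervals. The pair of KO lists is lowest, the pair of WT lists highest, and the 4 pairs of KO with WT lie between them.

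H3K36me3 overlapped less between genotypes than the other marks with lists of both genotypes. At equal numbers of the widest regions, 24.8% of WT H3K36me3 regions overlapped KO at 0 h. H3K4me1, a mark of enhancers and promoter flanks, reached 49.97% and H4K20me1 85.7% with the same number. The differences were -25.1 percentage points (-27.4 to -22.8) and -60.9 points (-62.8 to -58.9). At 1 h H3K36me3 reached 25.4% and H3K4me1 53.8%, a difference of -28.4 points (-30.7 to -26.1). H4K20me1 at 1 h has 2 WT lists of very different length, with 28248 and 2769 regions, and reached 43.1% and 53.6% with them, the 53.6% with all lists of that pair cut to 2769 regions. The differences to H3K36me3 were -17.7 points (-20.0 to -15.4) and -28.1 points (-30.5 to -25.7). The regions compared also differ in width. Their medians at 0 h were 501 bp in KO and 1191 bp in WT for H3K36me3, 2434 bp in KO and 2667 bp in WT for H3K4me1, and 11002 bp in KO and 5953 bp in WT for H4K20me1. The libraries differ in depth and in the share of tags in regions as well. The part of width, depth and tag share was not tested.

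Merged over the 4 lists, H3K36me3 was called at 27139 places. Of these 2849 (10.5%) were called in KO alone, 21336 (78.6%) in WT alone, and 2954 in both genotypes. In both KO lists and neither WT list there were 27 places, against 2497 in both WT lists and neither KO list. Places called in all 4 lists numbered 565, with a median width of 2981 bp, against 1189 bp for those in both WT lists alone and 501 bp for those in 1 list. The merged width grows with the number of lists by construction. Behind the region on chromosome 11 described above, the widest called in all 4 lists was chr11:120666925-120685233. KO covered 22.6% of it at 0 h and 20.1% at 1 h, against 55.8% and 83.6% in WT. The next, chr15:85522663-85537998, was covered by KO at 16.4% and 21.4% and by WT at 80.1% and 69.7%. At chr8:67194210-67206589 KO covered 8.09% and 22.6%, and WT 64.8% and 94.8%. Places shared by all lists could thus still differ several-fold in covered length, with chr1:90155028-90167490 as the exception, at 89.1% and 83.8% in KO and 93.7% and 90.9% in WT.

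Regions that recurred at the other KCl time within a genotype were shared more often between genotypes. Among KO regions at 0 h that KO also had at 1 h, 76.5% (72.7 to 79.9) overlapped WT at 0 h, against 30.8% (29.2 to 32.5) of those without a match. The KO shares at 1 h were 81.5% (78.0 to 84.6) and 39.3% (37.4 to 41.2). Among WT regions at 0 h that WT also had at 1 h, 22.5% (21.3 to 23.8) overlapped KO, against 4.999% (4.51 to 5.53) of the others. The WT shares at 1 h were 22.1% (20.9 to 23.4) and 3.59% (3.28 to 3.93). Recurrent regions were wider, with medians of 707 and 639 bp in KO and 689 and 981 bp in WT.

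A smaller class of WT regions had no KO call anywhere near. Of the 11459 WT regions at 0 h, 1328, or 11.6% (11.01 to 12.2), were called in WT at both times with no region of either KO list within 10 kb. Their median width was 627 bp. The widest was chr7:86469610-86473608, 3999 bp long, with the nearest KO region 26562 bp away and 15.7% of it covered in WT at 1 h. The next, chr2:164328366-164332104, lay 318744 bp from any KO region, with 22.4% covered in WT at 1 h. The region chr3:80493343-80496753 lay 107665 bp away and chr11:98554389-98557785 lay 56898 bp away, with 42.1% and 26.4% covered in WT at 1 h. At 0 h H4K20me1 covered at most 14.7% of each of these 4 regions in KO and at most 12.5% in WT. The remaining one of the 5 widest, chr17:56607166-56610738, was covered whole by H4K20me1 in both genotypes at 0 h, although H3K36me3 there was called in WT only.

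KO regions without a WT counterpart were narrow. At 0 h 79.8% of them, and at 1 h 81.5%, had the minimum width. Regions over 2 kb numbered 4 at 0 h and 1 at 1 h. The widest at 0 h, chr8:19937948-19941570, was 3.62 kb long and lay 1371 bp from a WT region. At 1 h WT regions covered 31.1% of it. The next, chr11:120675349-120678865, lay 14 bp from a WT region. At 1 h WT regions covered 56.6% of it and KO regions 10.2%. It lies inside chr11:120666925-120685233, given above as a place called in all 4 lists. The region chr4:146893337-146895645 differed from these, as it lay 423535 bp from the nearest WT region and was not called in KO or in WT at 1 h. The widest of 1 h, chr9:3034626-3037442, overlapped regions of all 8 antibody targets of the series, and 99.7% of it was covered in WT at 0 h.

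Regions within 10 kb of each other were joined into clusters to follow runs of calls along a locus. Clusters of 2 or more regions numbered 553 in KO and 2280 in WT at 0 h, a log2 ratio of -2.04 (-2.18 to -1.91). After 1 h of KCl these were 438 in KO and 3585 in WT, a log2 ratio of -3.03 (-3.18 to -2.89). In KO 37.6% and 35.1% of regions were in such clusters, against 60.6% and 70.5% in WT. A list with fewer regions forms fewer clusters by construction, and the part of region number was not tested. With WT thinned to its widest regions, 553 clusters in KO stood against 614 in WT at 0 h (log2 -0.15, -0.32 to 0.02), and 438 against 524 at 1 h (log2 -0.26, -0.45 to -0.07). Thinned WT lists had 43.0% and 42.7% of regions in clusters.

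The larger a WT cluster, the more often it held a KO region. The share of WT clusters with a KO region at 0 h was 9.16% for single regions, 49.0% for 3 to 4 regions and 94.7% (74.0 to 99.9) for 10 or more, 18 of 19 clusters. At 1 h these were 5.58%, 32.1% and 85.3% (76.5 to 91.7), 81 of 95 clusters. A longer cluster is hit more easily. The share of single WT regions kept within them moved less, from 9.16% for lone regions to 18.3% in the largest clusters at 0 h, and from 5.58% to 14.6% at 1 h. Most of the domains with most WT calls thus held a KO call, all but 1 at 0 h and all but 14 at 1 h, but at a minority of their regions.

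Within these large clusters KO had fewer regions than WT, by about as much as in the whole list at 0 h and by less at 1 h. The 95 WT clusters of 10 or more regions at 1 h, with a median length of 47.8 kb, were read at 0 h, whose lists had no part in choosing them. Clusters chosen for many WT calls can still favour WT, since 24.1% of WT regions at 1 h overlapped WT at 0 h. There KO had 231 regions over 3.39% of the length, and WT 740 regions over 14.5%. The KO-to-WT ratio of regions was 0.312 there and 0.315 in the whole lists of 0 h, and that of covered length 0.234 and 0.277. KO had fewer regions than WT in 90 of these 95 clusters, more in 1 and equal numbers in 4. Conversely, the 19 WT clusters chosen at 0 h held 77 KO regions and 220 WT regions at 1 h, over 6.03% and 34.3% of the length, with fewer in KO in 18 of 19. These give ratios of 0.35 for regions and 0.176 for covered length, with 0.181 and 0.146 in the whole lists of 1 h. Clusters chosen in KO were compared in the same way. They can favour KO in turn, since 18.1% of KO regions at 1 h overlapped KO at 0 h. The 24 KO clusters of 5 or more regions at 1 h held 71 KO and 127 WT regions at 0 h, over 15.1% and 32.3% of the length. KO had fewer regions than WT in 20 of these 24 clusters, more in 2 and equal numbers in 2. The 19 KO clusters of this size at 0 h held 58 KO and 96 WT regions at 1 h, over 19.5% and 44.9%. KO had fewer regions in 15 of these 19, more in 3 and equal numbers in 1. KO was lower than WT there too, with KO-to-WT ratios of regions of 0.559 at 0 h and 0.604 at 1 h. The shortfall was smaller than in the whole lists, and the part of the choice by KO calls in this was not tested.

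**Figure D4:**
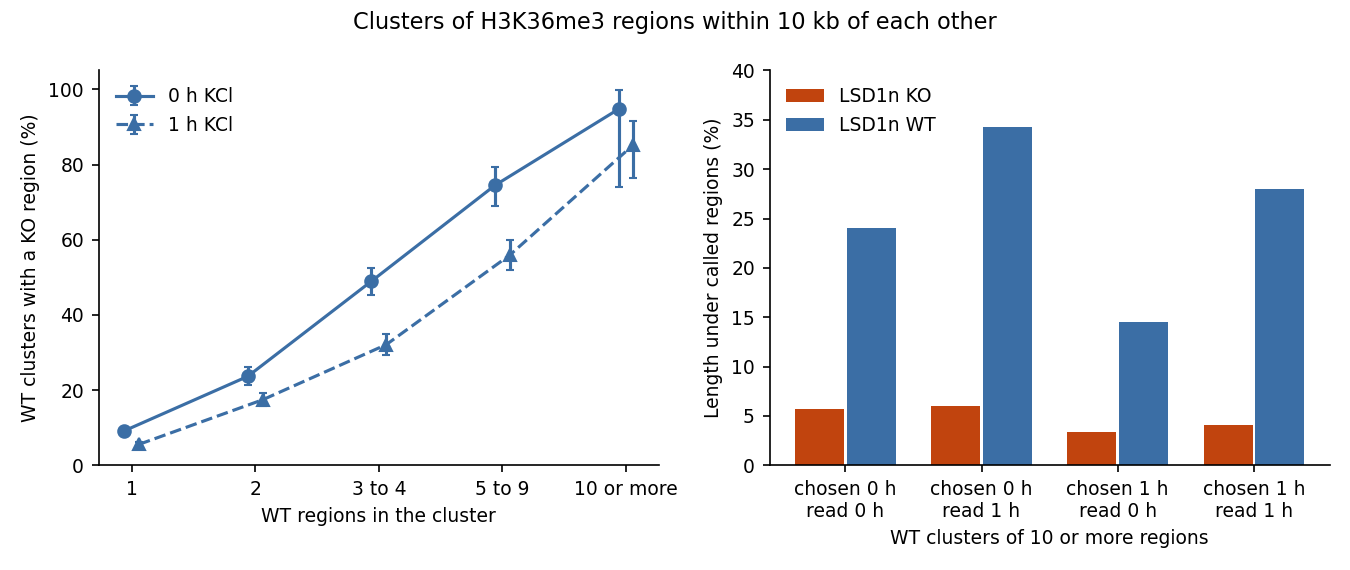
Left: share of WT clusters that hold at least 1 KO region (%, y axis) by number of WT regions in the cluster (x axis) at 0 h (circles) and 1 h (triangles) of KCl, with 95% exact binomial intervals. Right: percent of the length of WT clusters of 10 or more regions that lies under called regions in KO (left bar) and WT (right bar), for clusters chosen and read at each time; in clusters chosen at 1 h and read at 0 h, KO covers 3.39% and WT 14.5%.

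The largest single clusters were read in the same way. The cluster chr17:56533054-56615734, 82.7 kb long, held 8 KO and 17 WT regions at 0 h, covering 8.39% and 29.4% of it, and 8 KO and 18 WT regions at 1 h. The cluster chr4:148556134-148631416 held 2 KO and 17 WT regions at 0 h and 4 KO and 15 WT regions at 1 h. The cluster chr14:67421507-67481847 held 9 KO regions at each time, against 17 WT regions at 0 h and 14 at 1 h. The cluster with most regions, chr7:80545603-80661342, spans 116 kb. It held 2 KO and 13 WT regions at 0 h, and 7 KO and 29 WT regions at 1 h, covering 4.84% and 29.7%. The cluster chr11:97312623-97408565 held 8 KO and 20 WT regions at 0 h, and 7 KO and 23 WT regions at 1 h. KO had fewer regions than WT at both times in all 5 of these clusters, which were chosen for their number of WT regions.

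H4K20me1 marked lost WT regions less often than kept ones. The KO H4K20me1 list of 0 h overlapped 33.4% (32.5 to 34.4) of lost and 61.1% (58.4 to 63.7) of kept regions, a difference of -27.6 percentage points (-30.4 to -24.8). The WT list overlapped 17.2% (16.5 to 18) of lost and 42.8% (40.1 to 45.5) of kept regions, a difference of -25.5 points (-28.3 to -22.8). Lost regions were also narrower, with a median of 501 bp against 931 bp for kept ones at 0 h, and 501 bp against 1375 bp at 1 h. Averaged within 5 equal parts of the WT list by width, the difference with the WT list was -14.7 points, and with lists thinned to equal numbers it was -24.5 points. It was -4.70 points (-13.8 to 2.09) in the narrowest part and -26.1 points (-30.3 to -21.8) in the widest. The widest part runs from 837 to 73305 bp and holds 714 of the 1325 kept regions, so width was not held fixed within it. KO regions without a WT counterpart had shares near those of lost regions, with 32.9% (30.9 to 34.9) in the KO H4K20me1 list and 16.7% (15.2 to 18.3) in the WT list. Seen from the other side, 75.5% (73.7 to 77.2) of WT H3K36me3 regions with H4K20me1 in WT were lost, and 91.7% (91.1 to 92.3) of those without it.

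At 1 h the direction was the same with each H4K20me1 list, but the shares depended on the list. With the KO list 5.62% (5.27 to 5.99) of lost and 29.5% (27.1 to 31.9) of kept regions overlapped H4K20me1. With the longer WT list, 22.1% (21.4 to 22.7) of lost and 53.6% (50.9 to 56.2) of kept regions did, a difference of -31.5 points (-34.2 to -28.8). With the shorter WT list 1.91% (1.70 to 2.13) of lost and 16.1% (14.2 to 18.1) of kept regions did, a difference of -14.2 points (-16.2 to -12.3). The mean of the 2 was -22.8 ± 12.2 points (SD, n = 2 lists). The 2 WT lists have the same antibody, genotype and time, and their titles carry different prefixes. The shorter one shares its prefix with the KO list of 1 h and the longer one does not. Whether they came from separate cultures is not stated.

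At 0 h H4K20me1 was called more often in KO than in WT at the places where H3K36me3 was lost and where it was kept. Among lost regions without H4K20me1 in WT, 21.5% (20.6 to 22.4) had it in KO, and among such kept regions 35.2% (31.8 to 38.7). Relative to the WT share, the KO share was 1.94 times as high at lost and 1.43 times as high at kept regions. Conversely, 9.38% (8.06 to 10.8) of lost and 4.41% (2.87 to 6.44) of kept regions with H4K20me1 in WT lacked it in KO. The KO H4K20me1 list at 0 h is also the longer one, with 35877 regions over 92.9 Mb against 25235 regions over 49.6 Mb in WT. A list that covers more length meets more regions, and the part of covered length in these shares was not tested. At 1 h the direction depended on which WT list was used. The KO list of 1 h covered 12.0 Mb, against 57.2 Mb in the longer and 2.92 Mb in the shorter WT list. Against the longer one, H4K20me1 was in KO at 0.255 times the WT share of lost and 0.551 times that of kept regions, and against the shorter one at 2.95 and 1.83 times. The pair with a shared title prefix, KO with the shorter WT list, thus has the direction of 0 h, where KO and WT also share a prefix. What the prefix stands for is not stated, and the pair with different prefixes has the opposite direction.

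Pol II, called as sites of fixed size, rarely overlapped H3K36me3 regions and more rarely lost ones. Of all WT regions, the list labelled WT overlapped 1.62% at 0 h and 1.16% at 1 h. The headers of all 4 Pol II lists name the genotype opposite to their labels, so their genotype is uncertain and the labels are followed. At 0 h the list labelled KO overlapped 0.839% (0.671 to 1.04) of lost and 7.92% (6.53 to 9.51) of kept regions. The list labelled WT overlapped 0.819% (0.653 to 1.01) of lost and 7.77% (6.39 to 9.35) of kept regions, a difference of -6.95 percentage points (-8.53 to -5.62). At 1 h the list labelled KO gave 0.981% (0.834 to 1.15) and 7.69% (6.35 to 9.21), and that labelled WT 0.644% (0.526 to 0.780) and 7.05% (5.77 to 8.52), a difference of -6.41 points (-7.87 to -5.17). Averaged within 5 equal parts by width, the differences with the list labelled WT were -6.00 points at 0 h and -5.23 points at 1 h. In the narrowest part, with 95 and 67 kept regions, they were -1.24 (-6.50 to 0.36) and 0.44 points (-4.99 to 0.72). Over the whole WT list, lost regions had the lower share with each of the 4 lists, so the uncertain genotype does not change that direction. At 1 h the share of lost regions was higher with the list labelled KO than with that labelled WT. The list labelled KO is also longer, with 15712 sites on chromosomes 1 to 19 against 13839. This difference between the labels was not tested. Among KO regions without a WT counterpart, 1.52% (1.05 to 2.11) at 0 h and 1.08% (0.639 to 1.70) at 1 h held Pol II of the list labelled KO.

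The Pol II difference was smaller without a small set of regions called with every antibody target. Of the lost WT regions 3 of 10134 at 0 h overlapped regions of all 8 antibody targets, against 60 of 1325 kept ones. At 1 h these were 19 of 16004 lost and 53 of 1404 kept regions. Such regions overlap Pol II of at least 1 list by definition, so the smaller difference without them is set in part by that definition. Without them, the list labelled WT overlapped 0.800% of lost and 3.79% of kept regions at 0 h, a difference of -2.99 points (-4.21 to -2.05). At 1 h these were 0.525% and 3.70%, a difference of -3.18 points (-4.32 to -2.28). For H4K20me1 in WT at 0 h the difference without them was -23.4 points (-26.2 to -20.6). With Pol II within 10 kb in place of an overlap, 35.8% (34.9 to 36.8) of lost and 57.0% (54.3 to 59.7) of kept regions at 0 h were near a Pol II site, and 34.0% (33.3 to 34.8) and 55.3% (52.6 to 57.9) at 1 h.

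**Figure D5:**
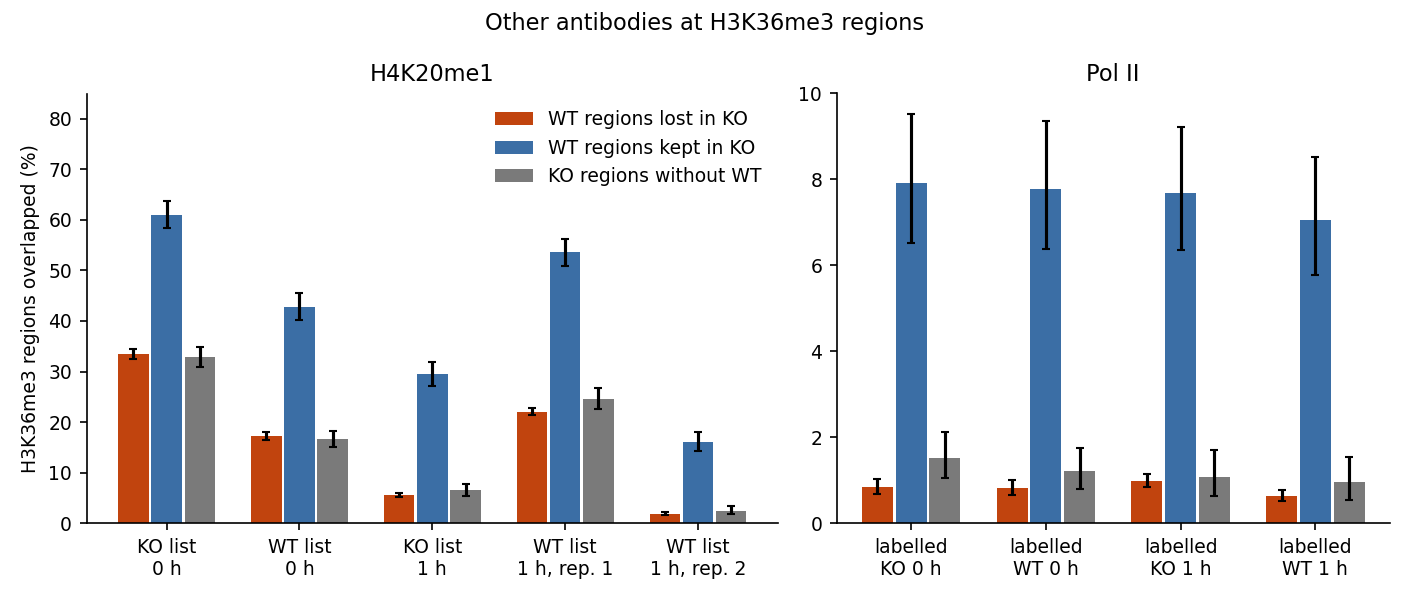
Share of H3K36me3 regions (%, y axis) overlapped by each H4K20me1 list (left) and each Pol II list (right; genotype as labelled) at the same KCl time, for WT regions lost in KO, WT regions kept in KO and KO regions without a WT counterpart; bars are 95% exact binomial intervals. With each of the 9 lists the kept regions are highest, for example 61.1% against 33.4% of lost regions for H4K20me1 in KO at 0 h.

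This contrast was not particular to H4K20me1 or Pol II. All 23 lists of other antibodies, of either KCl time, overlapped a lower share of lost than of kept WT regions, at 0 h and at 1 h. The differences ran from -27.6 to -6.52 percentage points at 0 h and from -33.4 to -4.67 points at 1 h. Without the regions of all 8 targets they ran from -25.9 to -2.20 and from -32.2 to -1.25 points.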

How the data were processed

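H3K36me3 was measured by chromatin immunoprecipitation with sequencing in 4 libraries of mouse cortical neurons, 1 per group of genotype and KCl time, grouped by the sample labels. The build is mm9, and Bowtie and HOMER are the tools listed, with no version, per the submitters' processing notes. Histone regions were called by the authors with HOMER findPeaks, per the file headers, in windows of 500 bp kept at least 1250 bp apart or stitched together, at a false discovery rate of 0.001, with fragments of 150 bp and 1 tag counted per position. The command lines in the headers name no control library. Per the file headers, Pol II sites have a fixed size of 200 bp. The deposited files give genomic positions in bp, and their score is 1 in every entry, so regions were ranked by width, with ties broken by the order in the list. Total tags and tags in regions come from the headers and cover all chromosomes.

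Overlaps, distances and clusters were computed on chromosomes 1 to 19 with numpy 2.4.6 and scipy 1.17.1 under Python 3.11.15, and figures drawn with matplotlib 3.10.9; the arithmetic was tested on simulated lists. Log2 ratios of numbers have exact conditional Poisson intervals, shares exact Clopper-Pearson intervals and differences of shares Newcombe intervals, at 95%. No test between groups was run. Alternatives were the whole genome, covered length, tags, stricter and looser overlaps, clusters, equal numbers, width parts, the list of the other genotype, and leaving out regions called with all 8 targets. Equal numbers by order in the list was added after seeing the data. A region is called with all 8 targets when it overlaps a region of each of them in any list.

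Regions named by position were the 5 widest lost, kept and KO-alone regions and the 3 WT clusters with most regions at each time, the 5 widest WT regions called at both times with no KO region within 10 kb, and the 5 widest places called in all 4 lists, leaving out chromosome 18. The text gives some of them. Positions count from 1. Clusters read at the other KCl time were chosen after seeing the data. The lists compared and the rules were chosen with earlier results of these data known. No mm9 annotation or sequence was used, so planned gene lists were not run.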

Additional observations from a re-analysis of the deposited data

Results flagged for a closer look

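The change in the number of H3K36me3 regions with KCl went opposite ways in the genotypes. In KO there were 3152 regions at 1 h and 3612 at 0 h, a log2 ratio of -0.20 (-0.27 to -0.13). In WT there were 17408 at 1 h and 11459 at 0 h, a log2 ratio of 0.60 (0.57 to 0.64). The difference between KO and WT was -0.80 on the log2 scale. It was not tested, since each group has 1 library. The tag totals at 1 h were lower than at 0 h in both genotypes.

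Outside chromosomes 1 to 19 the KO list of 0 h was not shorter than that of WT. On chromosome Y it held 31 regions, against 24 in WT at 0 h. At 1 h KO had 0 regions on chromosome Y and WT had 21. On chromosome X there were 40 in KO and 45 in WT at 0 h, and 12 in KO and 34 in WT at 1 h.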

How the results depend on the processing

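Of the 74 values under an alternative, 42 are log2 ratios or differences, none of which changed sign. The other 32 are shares of regions, which have no direction. Of all 74, 46 left the 95% interval of the value reported (for H4K20me1 at 1 h, 1 SD between the 2 WT lists). The log2 ratio of KO to WT regions was, at 0 h and 1 h, -1.85 and -2.78 for covered length, -1.28 and -1.81 for clusters, -2.03 and -3.04 for regions wider than the median, -1.26 and -2.33 for the share of tags in regions, and -1.13 and -2.05 per 1000000 tags. The share of KO regions overlapped by WT was, at 0 h and 1 h, 26.4% and 35.3% when 50% of the region must overlap, 54.0% and 64.9% within 1 kb, 78.7% and 86.6% within 10 kb, 25.9% and 28.4% at equal numbers of the widest regions, 26.5% and 29.5% at equal numbers by order in the list, and 49.7% and 60.7% for clusters. For WT regions overlapped by KO these were 4.81% and 2.57%, 17.3% and 12.0%, 38.5% and 30.3%, 24.5% and 25.4%, 25.1% and 26.5%, and 19.4% and 16.0%. The log2 ratio of clusters was -2.31 and -3.30 with a distance of 5 kb, -1.87 and -2.68 with 20 kb, and -0.15 and -0.26 at equal numbers. The difference between lost and kept regions for H4K20me1 at 0 h was -19.2 points within 10 kb and -14.7 within width parts. For Pol II it was -21.1 and -21.2 points within 10 kb at 0 h and 1 h, and -2.99 and -3.18 without regions called with all 8 targets. Leaving out either WT H4K20me1 list at 1 h gave -31.5 to -14.2 points. Equal numbers change the shares by construction, since fewer and wider WT regions enter. By construction too, a distance of 1 kb or 10 kb can only raise a share of overlapped regions, and a 50% overlap can only lower it. For the other settings the cause was not tested.

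No paired analysis was possible because each H3K36me3 group has 1 library. Region lists without signal values do not show how far a region missed the threshold. Lost WT regions came later in the deposited lists than kept ones, at median positions of 6220.5 and 1866 at 0 h. At 1 h these positions were 9264.5 and 2076.5. The part of list order in the contrasts of lost and kept regions was not tested. Most regions sit at the minimum width, where the rank by width is set by the order in the list.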

Other observations

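H3K4me1, which LSD1 can demethylate, followed the same split of WT H3K36me3 regions. At 0 h the H3K4me1 list of KO overlapped 7.46% (6.96 to 7.99) of lost and 30.9% (28.4 to 33.4) of kept regions, and that of WT 8.42% (7.88 to 8.97) of lost and 31.7% (29.2 to 34.3) of kept regions. At 1 h the KO list overlapped 13.2% (12.7 to 13.8) of lost and 42.2% (39.6 to 44.8) of kept regions, and the WT list 10.3% (9.82 to 10.8) and 35.3% (32.8 to 37.8). KO regions without a WT counterpart had H3K4me1 of KO at 9.41% (8.23 to 10.7) at 0 h and 18.3% (16.5 to 20.2) at 1 h. H3K4me2, for which lists of WT alone were used, overlapped 4.17% (3.79 to 4.58) of lost and 22.9% (20.7 to 25.3) of kept regions at 0 h.

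Sites of Flag-tagged LSD1n and of Flag-tagged LSD1c were both rare in lost regions. For Flag-LSD1n at 0 h 8 of 10134 lost and 90 of 1325 kept WT regions held one, and at 1 h 56 of 16004 lost and 71 of 1404 kept regions did. For Flag-LSD1c these were 21 lost and 104 kept regions at 0 h, and 58 lost and 80 kept regions at 1 h. With the LSD1 antibody in wild type neurons they were 89 lost and 119 kept at 0 h, and 114 lost and 91 kept at 1 h. The low counts are thus not particular to Flag-LSD1n. Of all WT regions at 0 h, 0.855% held a Flag-LSD1n site and 1.09% a Flag-LSD1c site. Regions called with all 8 targets, which include Flag-LSD1n by definition, numbered 3 among the lost and 60 among the kept regions at 0 h, and 19 and 53 at 1 h. Without them, 7 of 10131 lost and 33 of 1265 kept regions at 0 h held a Flag-LSD1n site of 0 h. At 1 h 37 of 15985 lost and 20 of 1351 kept regions held one of 1 h. The Flag-LSD1n list of 0 h has 802 sites on chromosomes 1 to 19, so a low share is set in part by its length.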
